A study of Mus musculus with 3 samples.

Results

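The anaphase-promoting complex was followed through 10 genes in mouse blastocysts, the embryos just before implantation. They were Anapc1, Anapc2, Anapc4, Anapc5, Anapc10, Anapc11, Cdc16, Cdc23 and Cdc27, which encode subunits of the complex, and Fzr1, which encodes its activator Cdh1 and is not a core subunit. All probes that the gene table tied to these symbols through their RefSeq accession were taken, which gave 20 of 56605 probes and 10 of 23458 named genes. The genes were chosen by measured values of these arrays, since Anapc1 had been picked out for its 2 probes, both brighter on the array of suppressed aging embryos than on the other arrays. The differences of Anapc1 are therefore a description with no test.

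Each of the 3 groups was 1 pool of 30 blastocysts of the ICR strain on 1 single-colour Agilent array. Young blastocysts came from females aged 3 to 6 weeks, and aging blastocysts from females aged 43 to 53 weeks. Suppressed aging blastocysts also came from females aged 43 to 53 weeks, and their medium held 10 μg/ml of a neutralizing antibody against CXCL5 and 10 nM of a selective antagonist of its receptor CXCR2. Embryos of every group were collected as zygotes 18 h after the hCG injection and cultured in KSOM medium for 96 h. Pooling leaves no measure of the spread between embryos, mothers or cultures, the antibody and the antagonist were given together, and no young embryos on these arrays received them.

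The anaphase-promoting complex is a ubiquitin ligase that marks proteins such as cyclin B and securin for destruction, which lets sister chromatids separate and the cell leave mitosis. A platform of large subunits, among them Anapc1, Anapc4 and Anapc5, joins a catalytic core of Anapc2 and Anapc11 to an arc of subunits with tetratricopeptide repeats, which includes Cdc16, Cdc23 and Cdc27. Anapc10 and the activators Cdc20 and Cdh1 recognize the substrates. Blastocysts divide rapidly, and mouse embryos without an essential subunit of the complex die early.

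A level is the log2 intensity of a probe minus that of the 75th percentile of its array, so levels are comparable between arrays for 1 probe and not between probes. Where a gene has several probes, the one with the highest mean level stands for it and is called its brightest probe. Of the 20 probes, 19 were above background on all 3 arrays. The exception was a Cdc16 probe designed on a predicted transcript, which was not above background on the young array. No spot of the 10 genes was an outlier or saturated. Each of these probes had 1 spot per array, and the spread of other probes served as a guide to spotting error. Among probes spotted at least 10 times, the median SD between spots was 0.052 over 290 probes above background on the young array, 0.049 over 288 on the aging array and 0.045 over 289 on the suppressed aging array. It covers spotting within an array and not the difference between pools or amplifications.

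Promoter sequences are shown for the 3 platform genes, because the highest and the lowest difference between suppressed aging and young embryos fell among them. The sequences are the 250 bases before the RefSeq transcript start on GRCm38.p6, 5′ to 3′ on the strand of the gene. They lie at chr2:128687396-128687645 on the minus strand for Anapc1, chr5:52833885-52834134 on the plus strand for Anapc4 and chr5:122821343-122821592 on the minus strand for Anapc5. Capitals mark a GC box (GGGCGG) in Anapc4 and a CCAAT box in Anapc5, on either strand.
Anapc1: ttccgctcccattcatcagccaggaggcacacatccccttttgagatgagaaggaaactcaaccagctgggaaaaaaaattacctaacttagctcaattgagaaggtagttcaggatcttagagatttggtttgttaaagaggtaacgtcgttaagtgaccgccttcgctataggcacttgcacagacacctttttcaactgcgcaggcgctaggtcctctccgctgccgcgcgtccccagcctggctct
Anapc4: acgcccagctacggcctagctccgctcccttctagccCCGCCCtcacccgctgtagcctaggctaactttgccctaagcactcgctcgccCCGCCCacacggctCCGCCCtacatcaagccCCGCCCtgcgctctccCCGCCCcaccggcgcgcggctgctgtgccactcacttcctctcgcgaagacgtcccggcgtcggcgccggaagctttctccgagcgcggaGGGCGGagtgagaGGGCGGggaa
Anapc5: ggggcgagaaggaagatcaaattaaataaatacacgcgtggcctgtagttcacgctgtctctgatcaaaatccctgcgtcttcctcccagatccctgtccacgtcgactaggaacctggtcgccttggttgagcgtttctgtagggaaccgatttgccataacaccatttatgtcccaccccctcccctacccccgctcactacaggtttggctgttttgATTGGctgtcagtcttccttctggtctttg

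The 250 bases of Anapc4 held 7 GC boxes, those of Anapc5 held 1 CCAAT box, and those of Anapc1 held neither. The cell cycle homology element (CHR, TTTGAA), found in promoters of many mitotic genes, was searched as well. Promoters were found for 9 of the 10 genes, in 11 windows since a gene can have several starts. A CCAAT box stood in 5 of the 11 windows, of Anapc5, Anapc10, Anapc11, Cdc27 and Fzr1, against 33.8% of all 32851 windows. A GC box stood in 3 of the 11, of Anapc4, Anapc11 and Fzr1, against 32.7% of all windows. The CHR stood in 0 of the 11, against 16.0% of all. CG dinucleotides numbered 11 in Anapc1, 30 in Anapc4 and 11 in Anapc5, with a median of 6 over all windows. These counts describe letters in short windows and show no binding.

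Between young and aging blastocysts, the brightest probes of the complex genes lay close together. By the brightest probe, 7 genes were higher and 3 lower in aging embryos, against 51.9% of all genes higher, and all 10 differences were within 0.5 on the log2 scale. Of the 7, Cdc27 at 0.020, Fzr1 at 0.031 and Anapc2 at 0.039 were smaller than the spotting SD of their differences. That SD came from replicate probes of like level and was 0.095, 0.070 and 0.095. None of the 10 differed by over 2-fold, against 19.0% of 16164 genes measured on these arrays. Those include genes above background on 1 of the 2 arrays only, whereas the brightest probes of the 10 were above it on every array. With 10 genes, a count of 0 is a small basis to set against that share. The median difference was 0.035, and 0.027 over all genes. The differences ran from -0.49 in Anapc5 to 0.41 in Anapc11.

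Between aging and suppressed aging blastocysts, 2 of the 10 genes differed by over 2-fold, and both were platform genes higher in suppressed aging embryos. Over 2-fold differences covered 17.3% of 15875 genes measured, with 8.77% higher and 8.50% lower. Anapc1 was also over 5-fold higher, as were 1.35% of genes. No probe of the 10 genes reached a log2 difference of 5, the limit as the methods print it. Of the others, 7 differed by less than 0.5 on the log2 scale and Fzr1 by -0.62. In all, 5 genes were higher and 5 lower, against 49.7% of all genes higher. The median difference was 0.15 with Anapc1 and -0.08 without it. It was -0.069 with the mean over the probes of each gene, so its direction was not stable. After normexp background correction it was 0.0073, with 0.027 over all genes. With the authors' processed values it was 0.064, with -0.092 over all genes. The median over all genes was -0.0034 in the main setting.

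Suppressed aging embryos differed from young ones by over 2-fold in the same 2 genes, which are to be read against 16.3% of 15931 genes, or 8.67% in the higher direction. With the mean over probes Anapc4 was at 0.67 on the log2 scale, and 1 gene was left. Anapc1 was again the 1 gene over 5-fold higher, against 1.38% of genes. Of the 10 genes, 7 were higher and 3 lower, with 52.4% of all genes higher, and the median difference was 0.17, against 0.034 over all genes. The 3 comparisons share their arrays, so a high or low value on 1 array enters both comparisons that use it.

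**Figure D1:**
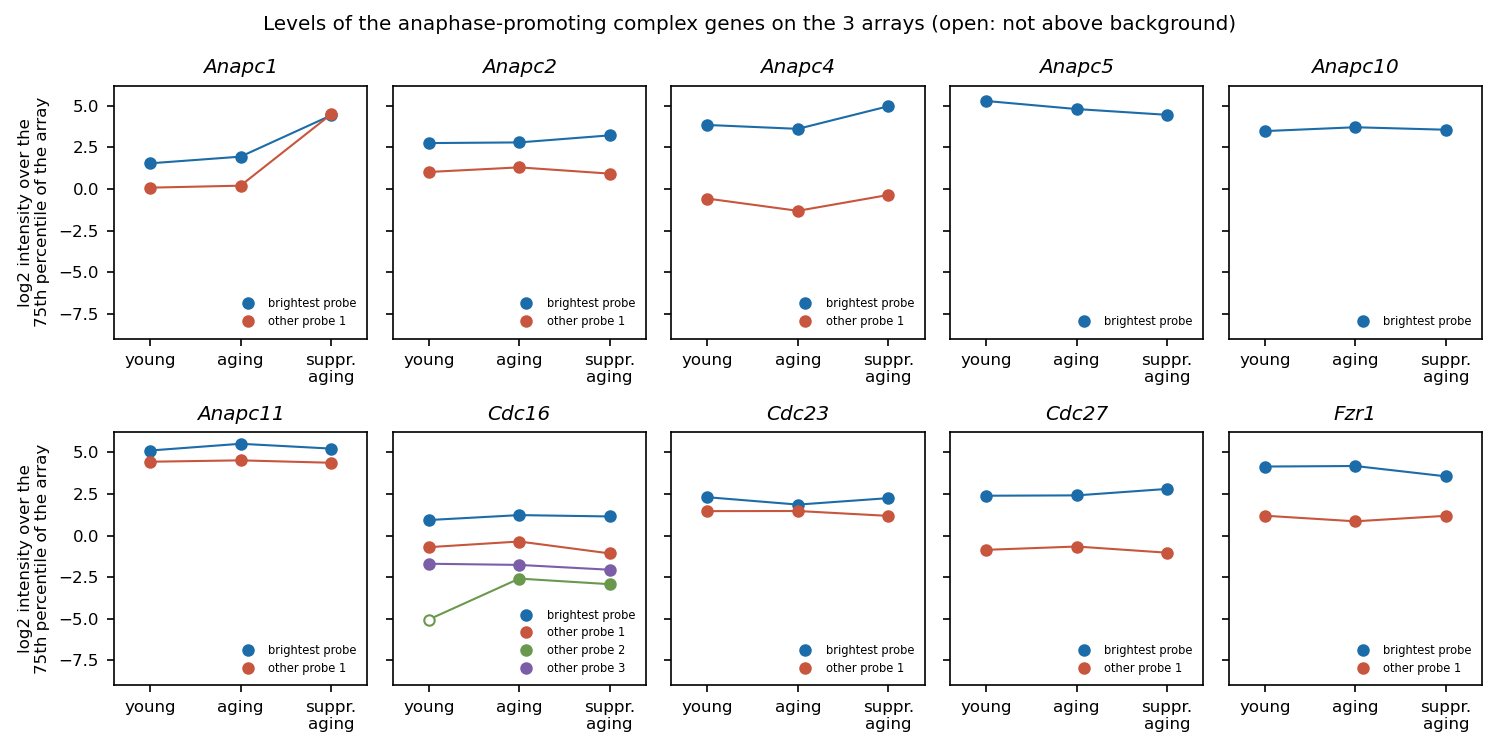
Levels of the 20 probes on the young, aging and suppressed aging arrays, 1 panel per gene, as log2 intensity over the 75th percentile of the array. Each line joins the values of 1 probe, blue marks the brightest probe and an open circle a spot not above background. Both Anapc1 probes climb on the suppressed aging array, to 4.43 and 4.49, while most other lines stay nearly flat.

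Anapc1, the largest subunit and the scaffold of the platform, was measured by 2 probes designed on the same transcript (NM_008569). The brightest probe had intensities of 423 in young, 596 in aging and 2640.0 in suppressed aging embryos, or levels of 1.55, 1.95 and 4.43. The second probe had intensities of 153, 178 and 2751, or levels of 0.081, 0.20 and 4.49. Young and aging embryos lay together on both probes, and the suppressed aging array stood alone above them.

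Suppressed aging embryos were 5.60-fold above aging embryos on the brightest Anapc1 probe and 19.6-fold above on the second. Against young embryos the folds were 7.39 and 21.3. The probes shared the direction, and their steps from aging to suppressed aging were 1.81 apart on the log2 scale. Among 4819 genes with 2 probes measured, 50 (1.04%) had both of their 2 brightest probes over 2-fold higher in this comparison, and 1.21% of such genes did in suppressed aging against young. Aging against young embryos gave 0.40 and 0.12 on the log2 scale.

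Anapc4, which joins Anapc5 to the rest of the platform, was also higher in suppressed aging embryos. Its brightest probe had intensities of 2095, 1900.5 and 3868 in young, aging and suppressed aging embryos, or levels of 3.85, 3.62 and 4.98. The suppressed aging level was 2.57-fold above the aging and 2.19-fold above the young level. The dimmer second probe had levels of -0.58, -1.31 and -0.36. There the aging array was lowest, suppressed aging embryos were 1.94-fold above aging embryos, and they differed from young embryos by 0.22 on the log2 scale.

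Anapc5, the third platform gene, ran opposite to Anapc1 and Anapc4 from aging to suppressed aging. From young to aging Anapc4 was lower as well, by -0.23 and -0.74 on its probes. The single Anapc5 probe fell from 5701 in young to 4341 in aging and 2700 in suppressed aging embryos, as levels of 5.30, 4.81 and 4.46. The step from young to aging was -0.49 and that from aging to suppressed aging -0.35. Suppressed aging embryos lay 1.78-fold below young ones, the lowest difference of the 10 genes in that comparison. The platform was thus not uniform. In suppressed aging against aging embryos 4 of its probes were higher and 1 lower, with 49.7% of all genes higher by brightest probe.

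Anapc2, the cullin subunit of the catalytic core, had levels of 2.76, 2.80 and 3.23 on its brightest probe. Its second probe had levels of 1.02, 1.30 and 0.93, so that suppressed aging embryos were highest on the former and lowest on the latter. Anapc11, the RING subunit that binds the ubiquitin-loaded enzyme, had levels of 5.12, 5.52 and 5.23 on its brightest probe and 4.44, 4.52 and 4.38 on its second. Both Anapc11 probes were highest in aging embryos. All 4 probes of the catalytic core were higher in aging than in young embryos, by 0.039 to 0.41 on the log2 scale. By brightest probe 51.9% of all genes were. The brightest Anapc2 probe (0.039) had a spotting SD of 0.095 for this difference, and the second Anapc11 probe (0.083) one of 0.070. Of the 4 probes, 3 were lower in suppressed aging than in aging embryos, where 49.7% of all genes were higher by brightest probe.

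Anapc10, a small subunit that helps form the receptor for the degradation signal, had levels of 3.49, 3.72 and 3.57 on its single probe. These values lay within 0.23 of each other. Fzr1 (Cdh1) activates the complex in late mitosis and G1. Its brightest probe had levels of 4.15, 4.18 and 3.56, lowest in suppressed aging embryos, with differences of -0.62 from aging and -0.59 from young ones. Its second probe had levels of 1.19, 0.85 and 1.18, lowest in aging embryos, so the probes of Fzr1 disagreed on which array was lowest.

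Cdc16, Cdc23 and Cdc27, whose tetratricopeptide repeats hold the activators and Anapc10 in place, showed no over 2-fold difference on their brightest probes. Cdc16 had levels of 0.93, 1.23 and 1.15. Cdc23 had levels of 2.30, 1.86 and 2.25 on its brightest probe, lowest in aging embryos, and 1.47, 1.47 and 1.18 on its second. Cdc27 had levels of 2.39, 2.41 and 2.80, highest in suppressed aging embryos, and -0.86, -0.66 and -1.04 on its second, lowest there. Of the 8 probes of these genes, 6 were lower in suppressed aging than in aging embryos, with a median difference of -0.29. By brightest probe, 49.7% of all genes were higher there.

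The other Cdc16 probes were dim. Those designed on the same transcript as the brightest had levels of -0.70, -0.36 and -1.08, and of -1.70, -1.77 and -2.06, and both were lowest in suppressed aging embryos. The probe on the predicted transcript was above background in aging and suppressed aging embryos only, at -2.59 and -2.93. Aging embryos were at least 3.04-fold and suppressed aging embryos at least 2.41-fold above young ones on that probe, counted from the detection limit of the young array. It was the 1 probe of the 20 over 2-fold apart between aging and young embryos, against 20.3% of named probes, and the other Cdc16 probes differed there by -0.07 to 0.34.

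**Figure D2:**
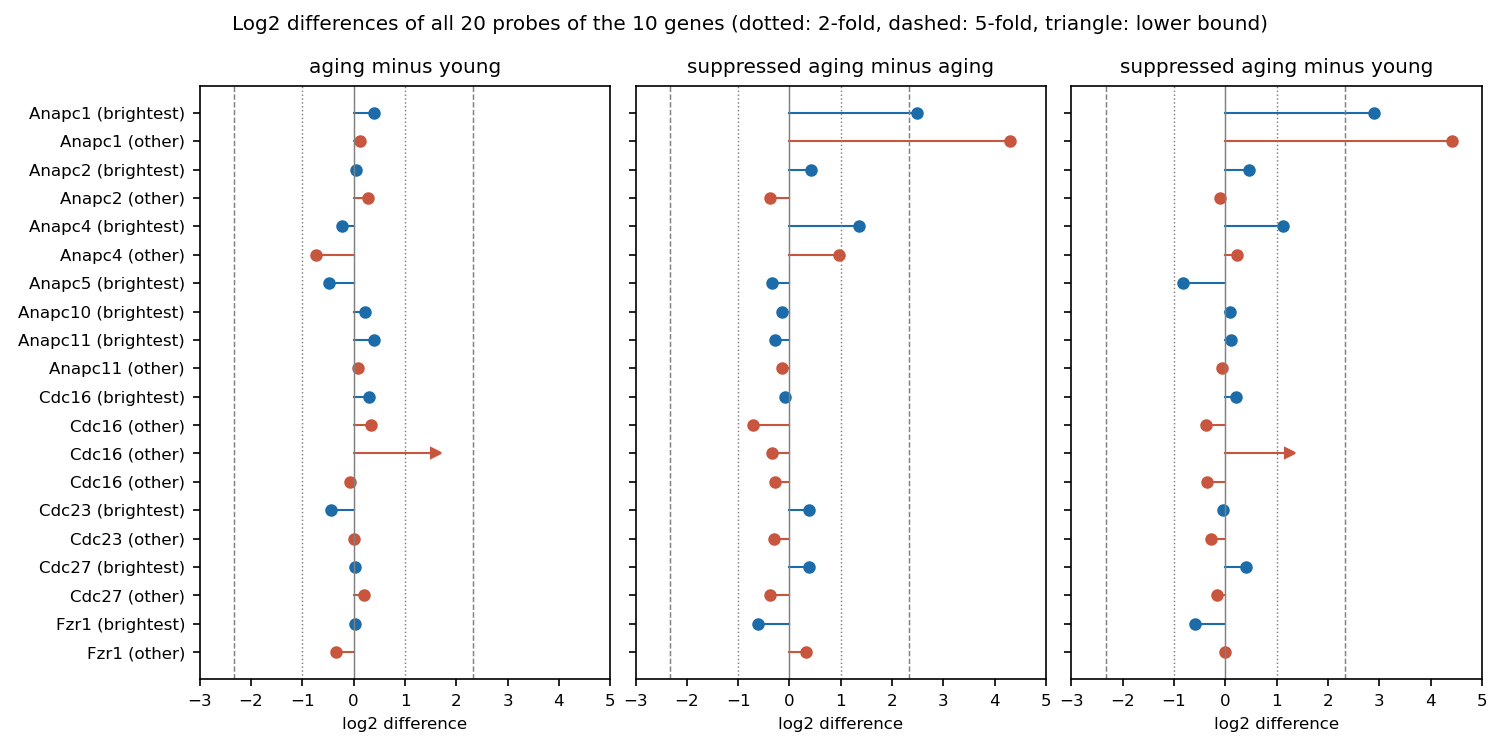
Log2 differences of all 20 probes in the 3 comparisons, 1 line per probe (blue for the brightest, red for the others), with dotted lines at 2-fold, dashed lines at 5-fold and triangles for lower bounds. Aging minus young stays within the dotted lines apart from 1 Cdc16 bound, and the Anapc1 probes lie beyond the dashed line at 2.48 and 4.29 in suppressed aging minus aging.

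Over all 20 probes, 14 were higher and 6 lower in aging than in young embryos, 8 higher and 12 lower in suppressed aging than in aging embryos, and 10 higher and 10 lower in suppressed aging than in young embryos. By brightest probe, 51.9%, 49.7% and 52.4% of all genes were higher in these comparisons. The share over all named probes was not counted. The median difference of the middle comparison was -0.15, and -0.22 without the 2 Anapc1 probes. Among the 19 probes above background on every array, the aging array was highest for 9, the suppressed aging array for 6 and the young array for 4. Over all 19706 such probes with a gene name the shares were 34.9% for aging, 33.6% for suppressed aging and 31.5% for young. The suppressed aging array was lowest for 8 of the 19, the young array for 7 and the aging array for 4. Over all such probes these shares were 28.6%, 36.0% and 35.4%. The median range over the 3 arrays was 0.41 for the 19 probes and 0.65 over all.

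Probes of 1 gene often disagreed. A pair of probes could be set side by side in 8 of the 10 genes. Between aging and suppressed aging embryos the 2 brightest probes had the same direction in 4 genes, Anapc1, Anapc4, Anapc11 and Cdc16, against 54.9% of all such genes. They had opposite directions in Anapc2, Cdc23, Cdc27 and Fzr1. The median gap between the 2 probes was 0.72 in the complex genes and 0.53 over all. Directions were shared in 6 of the 8 genes for aging against young (56.7% of all genes) and in 4 for suppressed aging against young (56.0% of all).

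**Figure D3:**
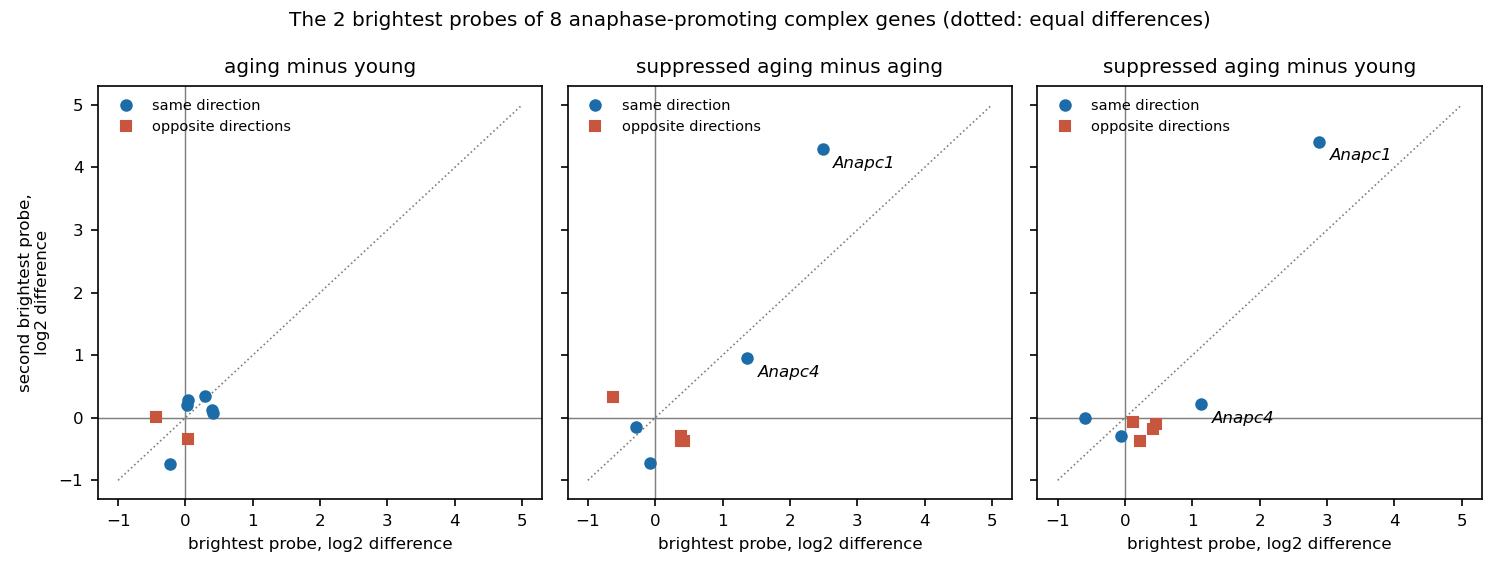
Log2 difference of the second probe (vertical) against that of the brightest probe (horizontal) in 8 anaphase-promoting complex genes, 1 panel per comparison, with a dotted line where both are equal. Points to the upper right and lower left of the zero lines have the same direction on both probes, which held for 6, 4 and 4 of the 8 genes. Anapc1, picked out by these values, stands far from the rest in both comparisons with suppressed aging embryos.

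The remaining subunits of the complex on the arrays, Anapc7, Anapc13, Anapc15, Anapc16 and Cdc26, showed no step of the size seen in Anapc1. None of the 5 differed by over 2-fold in any comparison by its brightest probe. Of all genes, 19.0% did from young to aging, 17.3% from aging to suppressed aging and 16.3% from young to suppressed aging. With 49.7% of all genes higher from aging to suppressed aging, 1 of the 5 was higher and 4 lower. They lay between -0.22 in Anapc7 and 0.27 in Anapc16, with a median of -0.054. A dimmer Anapc15 probe differed from its young level by -1.45 in aging and -1.24 in suppressed aging embryos, whereas the brightest differed by -0.23 and -0.29.

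The activator Cdc20 and the ubiquitin-conjugating enzymes Ube2c, Ube2s and Ube2d1, which work with the complex, showed no over 2-fold difference between aging and suppressed aging embryos. Such differences covered 17.3% of all genes. The highest of the 4 was Cdc20 at 0.38 and the lowest Ube2s at -0.42. Ube2d1 differed from its young level by -1.56 in aging and -1.39 in suppressed aging embryos on the log2 scale, whereas its dimmer probe gave 0.90 and 0.12. By brightest probe it was the 1 gene of the 4 over 2-fold apart in either comparison, while Ube2c was highest at 0.34 and 0.11. The shares of all genes over 2-fold apart there were 19.0% and 16.3%.

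Inhibitors of the complex and genes of the spindle checkpoint, which holds Cdc20 back until chromosomes are attached, were measured for 10 of 11 genes. Fbxo43 was not above background on any array. None of the 10 was over 2-fold apart in any comparison by its brightest probe, against the same 19.0%, 17.3% and 16.3% of all genes. From aging to suppressed aging, 7 were higher and 3 lower, the median being 0.39, from -0.79 in Ttk, a checkpoint kinase, to 0.78 in Bub1, another. Over all genes the median was -0.0034, with 49.7% higher. Ttk gave -0.11 and -0.46 on its other probes. From young to aging, 3 were higher and 7 lower, the median being -0.089, against 51.9% of all genes higher. They ran from -0.75 in Fbxo5 (Emi1), which blocks the complex before mitosis, to 0.38 in Mad1l1. The other probes of Ttk gave -1.04 and 0.28 from young to aging. Suppressed aging against young gave a median of 0.25, from -0.54 in Ttk to 0.67 in Trip13. There the other probes of Ttk gave -1.50 and 0.17, and that of Trip13 gave -0.72.

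Of 20 genes for substrates of the complex, none differed by over 2-fold between aging and young embryos by its brightest probe, where the highest was Pttg1 (securin) at 0.99 and the lowest Nusap1 at -0.78. Other probes did, with -1.30 in Tk1 and -1.11 in Anln. By brightest probe 19.0% of all genes did. From aging to suppressed aging, 11 of the 20 were higher and 9 lower, the median being 0.075, against 49.7% of all genes higher. The highest was Cdc25a, a phosphatase that drives entry into the cycle, at 1.42, and the lowest was Anln, a protein of the cytokinetic ring, at -1.09. Another probe of each gene gave 0.18 for Cdc25a and 1.13 for Anln. Against young embryos, Cdc25a was highest in suppressed aging embryos at 1.92, with -0.13 on its other probe, and Skp2 was lowest at -0.83. Tk1 was at 0.40 there on its brightest probe and at -1.47 on its other.

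The core genes of the cullin-RING ligases, a related class of ubiquitin ligases, numbered 9. None was over 2-fold apart in any comparison by its brightest probe, against the same 19.0%, 17.3% and 16.3% of all genes. Dimmer probes were, from young to aging at 1.73 in Cul5 and 1.35 in Rnf7. From young to suppressed aging they gave 1.04 in Cul5 and at least 1.23 in Cul4a. The third probes of Cul5 and Rnf7 gave 0.12 and 0.54 from young to aging. By brightest probe, the median from aging to suppressed aging was -0.0063, from -0.38 in Cul3 to 0.81 in Cul4a. From young to aging it was 0.30, from -0.31 in Cul1 to 0.52 in Cul5, and from young to suppressed aging it was 0.20, from -0.11 in Cul4b to 0.93 in Cul2. The step of Anapc1 lay above every gene of these lists in both comparisons with suppressed aging embryos. Anapc1 had been picked out for its values on that array, so this rank is a description.

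**Figure D4:**
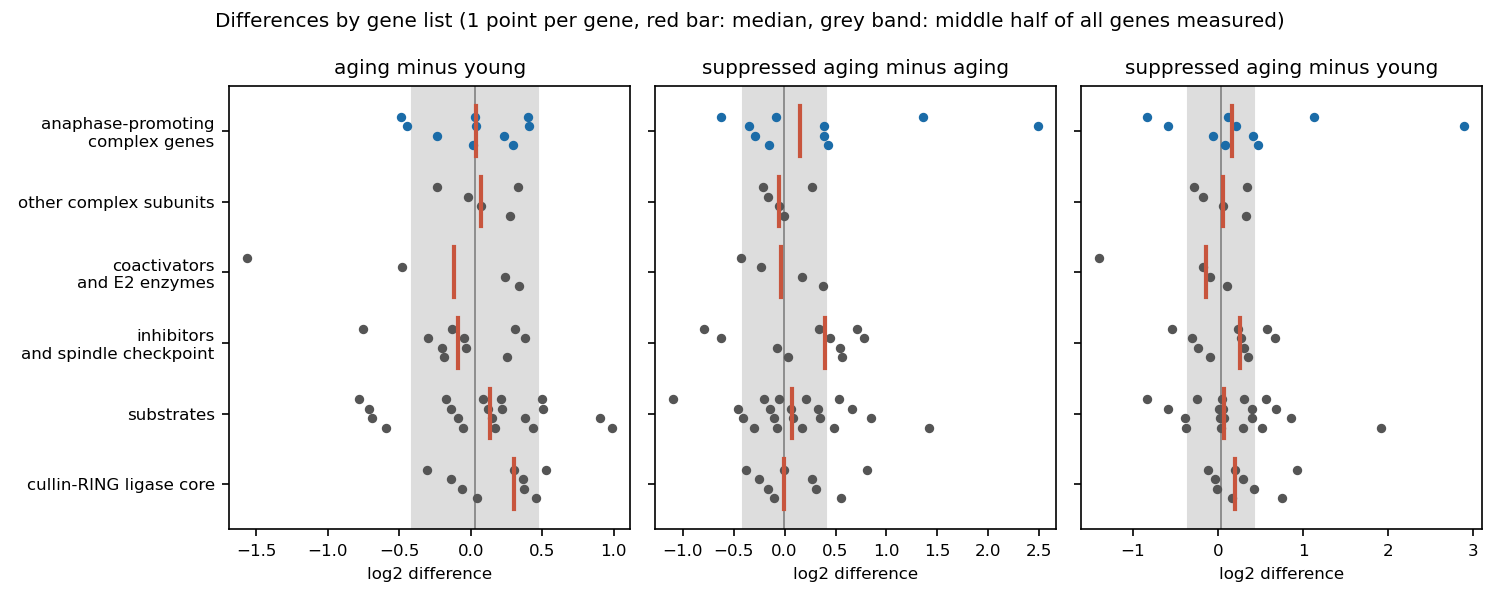
Log2 differences, by brightest probe, of the 10 complex genes and of the lists of other subunits, activators and conjugating enzymes, inhibitors and checkpoint genes, substrates and cullin-RING genes in the 3 comparisons. Each point is 1 gene, each red bar a median and the grey band the range between the quartiles of all genes measured, and the panels have axes of their own. Medians of the lists lie between -0.14 and 0.39. Anapc1, picked out by these values, is the highest point at 2.48 and 2.89 in the comparisons with suppressed aging embryos.

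The genes most like the brightest Anapc1 probe were sought among 16602 genes, each by its brightest probe. The measure was the root mean square distance between the 3 levels, each profile centred on its mean. The second Anapc1 probe was not matched, and its step from aging to suppressed aging was 4.29 in place of 2.48. The nearest were Peg3 at 0.048, 1700028K03Rik at 0.052 and Jmjd6 at 0.076. Peg3 had levels of -3.89, -3.40 and -0.89 and 1700028K03Rik of -4.32, -3.69 and -1.20, near the detection limits of -4.20, -4.32 and -3.93 in young and aging embryos. A level below the limit was set to it. Jmjd6 had levels of 1.42, 1.75 and 4.12 on its brightest probe, and its other probe differed by 0.17 between aging and suppressed aging embryos. Profiles of 3 points are matched by many genes among so many, and likeness here is a description.

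Markers of the blastocyst lineages were checked on the same arrays. All 7 trophectoderm, 5 epiblast and 4 primitive endoderm markers were above background on every array. The summed linear intensity of the trophectoderm markers, in units of the 75th percentile, was 495 in young, 374 in aging and 441 in suppressed aging embryos. That of the primitive endoderm markers was 15.9, 19.0 and 15.9. That of the epiblast markers was 1012, 1228 and 1134 and came mostly from Nanog. All 5 epiblast markers were higher in aging than in young embryos, with a median difference of 1.11 and 3 over 2-fold, Sox2 at 1.37, Klf2 at 1.31 and Esrrb at 1.11. All 5 were lower in suppressed aging than in aging embryos, with a median of -0.22. Over all genes by brightest probe, 51.9% were higher from young to aging and 9.86% over 2-fold higher. From aging to suppressed aging, 49.7% of all genes were higher. The other lineages were mixed. From young to aging, 2 primitive endoderm markers were higher and 2 lower, from -1.53 in Sox17 to 1.28 in Pdgfra. Of the trophectoderm markers 2 were higher and 5 lower, from -1.16 in Tfap2c to 0.91 in Elf5. The other probes of Sox17 and Tfap2c gave 0.33 and 0.081. From aging to suppressed aging, 1 primitive endoderm marker was higher and 3 lower, and 6 trophectoderm markers were higher and 1 lower.

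Markers of cells that could adhere to embryos were also read. Of 7 cumulus and granulosa markers, Fshr, Has2, Ptx3 and Inha were not above background on any array, and the sum was 0.73, 0.70 and 0.84. Cyp19a1, Amh and Star were above background on every array. All 3 were lower in aging than in young embryos, with a median of -0.13. All 3 were higher in suppressed aging than in aging embryos, with a median of 0.30. Over all genes, 51.9% were higher in the former comparison and 49.7% in the latter. Of 4 blood markers, Ptprc was not above background on any array, Hbb-b1 was above it in aging embryos only, and the sum was 5.72, 4.27 and 2.23. The macrophage marker Cd68 carried most of it, with levels of 2.30, 1.37 and 0.80. The haemoglobin gene Hba-a1 had levels of -0.36, 0.55 and -1.14, and its other probe had levels of -2.96, -1.40 and -2.21, both highest in aging embryos. The part of these cell types in the Anapc1 and Anapc4 differences was not tested. Between 56.4% and 58.7% of probes were above background per array. All arrays lay on 1 slide and were scanned in 1 run. In pooled embryos, fewer cells of a type and less RNA per cell cannot be told apart.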

How the data were processed

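Each group was 1 pool of 30 mouse blastocysts on 1 single-colour array. The labels name a low-input labelling kit, whereas the methods describe a global PCR amplification. The deposited values are linear spot intensities that the authors took from Agilent Feature Extraction 12.0.3.1, background-subtracted and not normalized between arrays. The authors' table holds the same intensities times 1 factor per array.

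Control and outlier spots were left out, log2 intensities of the spots of a probe were averaged, and each array was scaled by subtracting its 75th percentile. A difference needed a probe above background on both arrays. With 1 such array it is a bound ("at least") from the detection limit, and with none it was not given. Calls were over 2-fold or over 5-fold. The methods print a log2 fold change above 5 together with a P-value, whereas the study's results speak of fold changes over 5. With 1 array per group no test was possible, no P-value is given, and the number of arrays limits the precision. Gene names came from a GRCm38.p6 table through RefSeq accessions. The design was annotated on an older build, so probe coordinates are not given, and promoters are credited to RefSeq on GRCm38.p6.

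The genes and lists were chosen with earlier results of these data known. All probes of the 10 genes are named, with the highest and lowest gene of each other list per comparison (a few further members and second probes were named after their values were seen) and the 3 genes nearest to Anapc1. The 9 alternatives stand in the closing section. Scripts used Python 3.11.15, NumPy 2.4.6, pandas 2.3.3, Matplotlib 3.10.9, R 4.3.3 and limma 3.58.1, and were tested on simulated data.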

Additional observations from a re-analysis of the deposited data

How the results depend on the processing

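The 9 alternatives were normexp background correction (offset 50, on median spot signals), quantile normalization, centring on commonly detected probes or on 15 housekeeping genes, the authors' processed values, outlier spots kept, the gene value as a mean over probes, differences from probes detected on both arrays only, and no filter on dim probes. The mean over probes moved the median of the 10 genes from 0.035 to 0.13 in aging minus young and from 0.15 to -0.069 in suppressed aging minus aging, and it left 1 gene in place of 2 over 2-fold apart in suppressed aging minus young, with Anapc4 at 0.67. Under normexp the median was 0.0073 in suppressed aging minus aging and 0.062 in suppressed aging minus young, and with the authors' values it was 0.064 in the former. The authors' values carry 1 factor per array, which shifts every difference between 2 arrays alike. Their median over all genes was -0.092 in suppressed aging minus aging. The cause of the other moves was not tested. The other counts of genes over 2-fold and 5-fold did not change. The sign held under every alternative for 27 of 30 gene differences, the exceptions being Fzr1 in aging minus young and Anapc10 and Anapc11 in suppressed aging minus young. Not every alternative could change a sign. The settings on dim probes left these genes unchanged, since their brightest probes were above background on every array. Keeping outlier spots changed only the scaling, since no spot of the 10 genes was an outlier. Anapc1 stayed between 2.37 and 3.39 in suppressed aging minus aging and Anapc4 between 1.16 and 1.37. The second Anapc1 probe moved more, between 3.63 and 4.30 in suppressed aging minus aging and between 3.70 and 4.43 in suppressed aging minus young. Its lowest value came from normexp in both. Among all genes over 5-fold apart, the share that was higher moved under normexp from 50.5% of 418 to 11.1% of 45 genes in aging minus young, from 59.1% of 364 to 92.0% of 50 in suppressed aging minus aging and from 56.8% of 387 to 50.6% of 77 in suppressed aging minus young. No paired analysis was possible because each group had 1 array, and leaving out a replicate was likewise not possible. Dim probes carried more spotting error, with a median SD between spots of 0.17 to 0.21 at levels below 0.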
